A study of Mus musculus with 6 samples.

Results

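Peaks that lie outside chromosomes 1 to 19, X and Y of the mouse were taken from 6 lists of CTCF binding. Their members are every peak whose sequence name is the mitochondrial genome (chrM), an unlocalised scaffold (a "random" sequence, assigned to a chromosome but not placed on it) or an unplaced scaffold (chrUn, assigned to no chromosome). The rule uses names only and no measured value, and it took 492 of 173073 peaks, 6 on chrM and 486 on scaffolds. They come from thymic regulatory T cells, a lymphocyte type that restrains immune responses, of 2 genotypes with 3 libraries each, WT and Cgas knockout (Cgas_KO), all made by CUT&RUN for CTCF. Age, sex, strain and the kind of knockout allele were not stated in the sources used here. The labels also do not say whether replicates were separate animals, so p-values here describe the spread between libraries alone, which may be technical. The lists hold peaks and no expression, so neither the cell type nor the loss of Cgas could be checked against genes.

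CTCF is a zinc-finger protein of the nucleus that binds DNA at a long motif and marks many boundaries between chromosome loops. CUT&RUN uses an antibody to bring a nuclease to the bound protein and sequences the DNA that is released. Mitochondrial DNA is a small circular genome present in many copies per cell and not wrapped in nucleosomes. The enzyme cGAS, encoded by Cgas, senses double-stranded DNA, and mitochondrial DNA that reaches the cytosol is one of its known ligands. Scaffolds that could not be placed on a chromosome are often repeated or duplicated sequence.

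Read depth is unknown, as signal is listed within peaks and nowhere else. Peak heights under 200 steps were whole multiples of 1 step of signal in each list, within 0.01 of a step, and the median chromosome peak was 11 to 14 steps high. A step was worth more signal in the WT lists than in the Cgas_KO lists, 0.190 to 0.212 against 0.117 to 0.120 signal units. How signal was scaled was not stated in the sources used here. Signal is therefore given as a share of the list's total signal, and height as a multiple of the median height of the chromosome peaks of the same list, called the list median below. Total signal and maximum signal per peak are the authors' own values. A single peak on chromosome 2, from 98492533 to 98497710 in WT replicate 2 and overlapping that span in the others, held 40.3% to 42.3% of each list's signal. No control library was used here, and whether signal on any of these sequences comes from CTCF was not tested. Positions are in mm39, counted from 1. No sequence of that build was used here, so no bases are printed, and the genes on the scaffolds were not analysed here.

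Peaks fell on 28 sequences, chrM and 27 scaffolds. Of the scaffolds, 16 carried a peak in all 6 lists, 2 in 5 lists, 7 in 2 to 4 lists and 2 in 1 list. Every one of the 6 scaffolds assigned to chromosome 1 was in all 6 lists. So were 8 of 15 unplaced scaffolds, 1 of 5 scaffolds assigned to chromosome 5 (chr5_JH584299v1_random) and the single scaffold assigned to chromosome X (chrX_GL456233v2_random). The number of scaffolds found in every list of one genotype while missing from every list of the other was 0. The 2 seen in 1 list were chr5_JH584297v1_random, in Cgas_KO replicate 3, and chrUn_GL456390v1, in WT replicate 3, at heights of 0.727 and 1 times the list median. Sequences without a peak in any list do not appear in the files and were not counted.

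The sequences that recurred differed in height by 3 orders of magnitude. Between the tallest, chrUn_JH584304v1, and the lowest, chr5_JH584299v1_random, the height of the tallest peak went from 578 to 708 times the list median down to 0.714 to 1 times it. Above 5 times the list median in every list stood chrM and 5 unplaced scaffolds, namely chrUn_JH584304v1, chrUn_MU069435v1, chrUn_GL456392v1, chrUn_GL456389v1 and chrUn_GL456396v1. The next were chr1_MU069434v1_random at 2.73 to 4.69 times and chrUn_GL456367v1 at 2.36 to 2.92 times. In the plot of heights the scaffolds assigned to chromosome 1 lie between 1.62 and 2.86 times the list median, apart from chr1_MU069434v1_random.

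**Figure D1:**
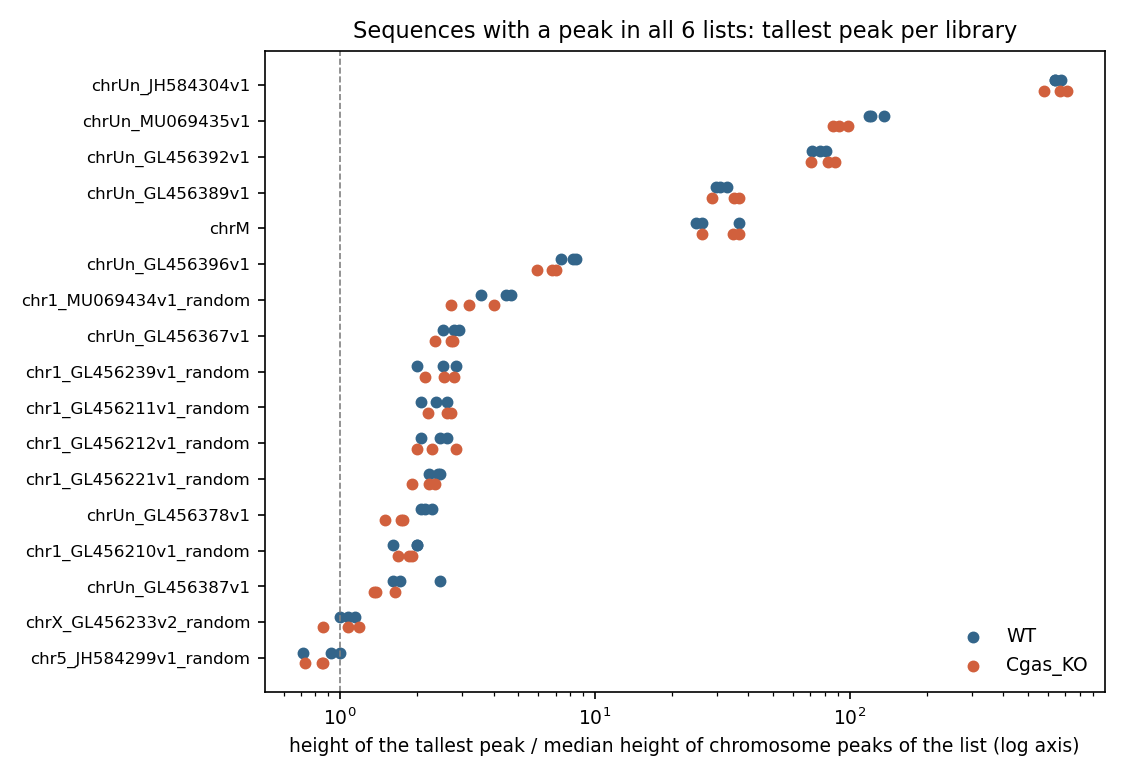
Height of the tallest peak on each of the 17 sequences with a peak in all 6 lists, as a multiple of the median height of chromosome peaks of the same list (log axis). Each point is 1 library, WT in blue and Cgas_KO in orange, and the dashed line marks the list median. From chrM upward 5 sequences stand at 25 times or more in every library. Every Cgas_KO library lies below every WT library at chrUn_MU069435v1, chrUn_GL456396v1 and chrUn_GL456378v1, as in 33.5% of all 4921 regions called in every list.

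The mitochondrial genome was called as 1 peak over its whole length in every list, from 1 to 16299, so the length covered did not vary. Its maximum was 25, 26.3 and 36.7 times the list median in WT replicates 1 to 3, and 34.6, 36.8 and 26.3 times in Cgas_KO replicates 1 to 3. The highest WT and the lowest Cgas_KO library cross over, and the groups overlap. On the log2 scale the difference, Cgas_KO minus WT, was 0.16 (exact permutation test, two-sided, p = 0.6, adjusted 0.933 over 8 measures, n = 3 a group). The peak ranked between 16 and 20 by height and between 9 and 11 by total signal among all peaks of its list. Its maximum lay between 5708 and 6389 in all 6 lists. The profile was broad, since the mean signal over the 16299 bp was 35.7% to 46.5% of the maximum.

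Mitochondrial DNA held a larger share of the total signal in Cgas_KO. The share was 0.154%, 0.155% and 0.182% in WT replicates 1 to 3, and 0.199%, 0.204% and 0.204% in Cgas_KO replicates 1 to 3. All Cgas_KO libraries thus lay above all WT libraries, and WT replicate 3 was the closest to them. The means were 0.163% ± 0.0158 (SD, n = 3) and 0.202% ± 0.00306 (SD, n = 3), a ratio of 1.24. The exact permutation test gave p = 0.1, the smallest that 3 against 3 allows, and 0.4 after Benjamini-Hochberg adjustment over the 8 measures. Among all 4921 regions called in every list, 3.62% had a share of total signal that was higher in every Cgas_KO than in every WT library. Of the 16 chromosome regions over 20 times the list median on average, nearer to chrM in height, 6 were higher by this rule and 5 lower. With only the chromosome signal as the base, and without its tallest peak, chosen after the values were seen, the mitochondrial signal came to 0.313% ± 0.0276 in WT and 0.392% ± 0.00997 in Cgas_KO (SD, n = 3). In limma on log2 shares over all 4921 regions, the mitochondrial difference was 0.31 (Benjamini-Hochberg adjusted p = 0.485).

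The unplaced scaffold chrUn_JH584304v1 was the largest single holder of signal among the members. It was called as 1 peak from between 2 and 15 to 114452 in every list. Its share of the total signal was 5.91%, 5.93% and 5.88% in WT replicates 1 to 3 and 6.03%, 5.99% and 6.01% in Cgas_KO replicates 1 to 3, which gives it rank 3 by total signal in every list. All Cgas_KO libraries lay above all WT libraries, by a ratio of the means of only 1.02. By share, 3.62% of all 4921 regions called in every list were higher in this way. Relative to the list median its height was 636, 635 and 670 times in WT and 666, 708 and 578 times in Cgas_KO, and the groups overlap. The signal was concentrated, with a mean over the peak of 8.72% to 9.08% of its maximum. The maximum fell at nearly the same place in all 6 libraries, between 103540 and 103550, a spread far under the 114452 bp of the called stretch.

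Set against this scaffold alone, mitochondrial signal was higher in Cgas_KO as well. As the scaffold held a nearly constant 5.88% to 6.03% of every list, this ratio mostly restates the mitochondrial share. Mitochondrial signal was 2.60%, 2.61% and 3.09% of that of chrUn_JH584304v1 in WT replicates 1 to 3, and 3.29%, 3.4% and 3.39% in Cgas_KO replicates 1 to 3. The groups do not overlap. This ratio was formed after the values were seen and was not tested.

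Also covered from end to end was chrUn_MU069435v1, whose peak ran from 1 to 31129 in all 6 lists. Its height was 121, 119 and 136 times the list median in WT replicates 1 to 3 and 85.6, 98.7 and 90.9 times in Cgas_KO replicates 1 to 3. Every Cgas_KO library was lower than every WT library, as were 33.5% of all 4921 regions. The log2 difference of -0.45 (SE 0.23) did not pass the test (limma, Benjamini-Hochberg adjusted p = 0.170 over 4921 regions). Its share of the total signal overlapped between the genotypes, at 0.448%, 0.449% and 0.455% in WT and 0.443%, 0.456% and 0.475% in Cgas_KO. The mean signal over the peak was 13.0% ± 0.328 of its maximum in WT and 17.4% ± 0.976 in Cgas_KO (SD, n = 3), so that the profile was flatter in all 3 Cgas_KO libraries. The width was the same and the shares overlapped, so this ratio mostly restates the lower height. This ratio was also higher in every Cgas_KO library for the tallest peaks of chrUn_GL456378v1 and chrUn_GL456387v1. On the latter the tallest peak was not the same in all libraries, at 7557 to 9377 in WT replicate 2 and 2807 to 5946 in Cgas_KO replicate 3. How often this ratio was higher in this way among all regions was not computed. The flatter profile was seen after the values were at hand and was not tested. The maximum lay between 30706 and 30769 in every library, close to the end of the called stretch.

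**Figure D2:**
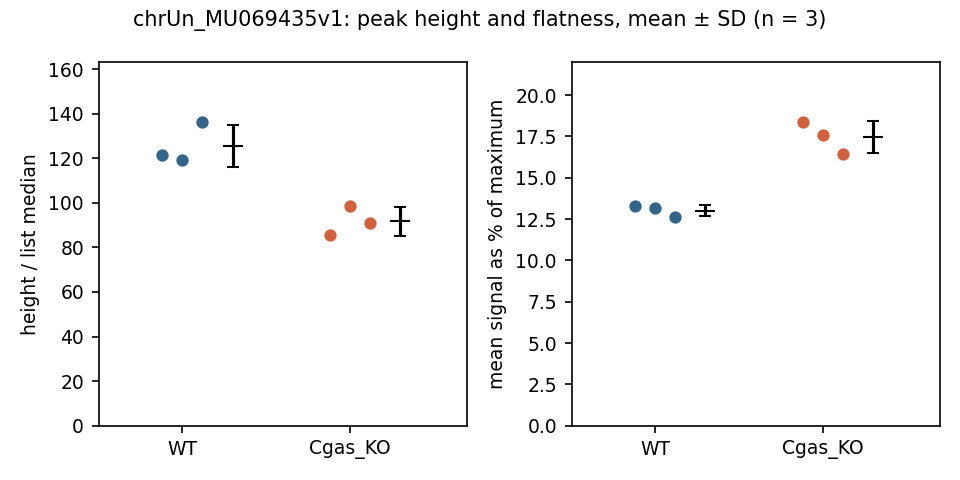
The peak over chrUn_MU069435v1 in each library. Left, its height as a multiple of the list median. Right, its mean signal as a percent of its maximum. Points are libraries, bars the mean ± SD (n = 3). Heights are 119 to 136 in WT and 85.6 to 98.7 in Cgas_KO, while the mean signal is 12.6% to 13.3% of the maximum in WT and 16.4% to 18.3% in Cgas_KO.

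Tall peaks that did not span their sequence were found on chrUn_GL456392v1 and chrUn_GL456389v1. Peaks covered 9.07% to 34.1% of the former and 4.64% to 12.8% of the latter, counted up to the furthest peak end. The median width of chromosome peaks was 2569 to 3607 bp across the lists. On chrUn_GL456392v1 the tallest peak was 1887 to 3838 bp wide and stood at 71.3, 76.5 and 80.8 times the list median in WT and 82.1, 87.2 and 70.6 times in Cgas_KO. Its maximum fell between 22708 and 22721 in all 6 libraries. On chrUn_GL456389v1 the single peak was 525 to 1442 bp wide, and its left edge lay at 10309 in 4 lists, at 10311 in Cgas_KO replicate 3 and at 9643 in Cgas_KO replicate 2. It stood at 30.9, 29.7 and 32.9 times the list median in WT and 35.0, 36.7 and 28.6 times in Cgas_KO, with a maximum between 10638 and 10661. Heights overlapped between the genotypes on both. Their shares of the total signal did not, at 0.0510% ± 0.000752 against 0.0544% ± 0.00117 for chrUn_GL456392v1 and 0.00903% ± 0.000321 against 0.0101% ± 0.000524 for chrUn_GL456389v1 (SD, n = 3), higher in Cgas_KO in both cases. By share, 3.62% of all 4921 regions were higher in every Cgas_KO library. Of the 16 chromosome regions over 20 times the list median on average, 6 were.

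A lower maximum was seen on chrUn_GL456396v1, as a stretch whose length varied between libraries. The maximum began at 12019, 11956 and 12066 in WT and at 11955, 11954 and 11962 in Cgas_KO. It ended between 12064 and 12072 in all 6 libraries. Around it the called peak was 193 to 7235 bp wide, so that its edges moved far more than its summit. It stood at 7.36, 8.38 and 8.23 times the list median in WT and 5.93, 6.77 and 7 times in Cgas_KO, lower in every Cgas_KO library, as were 33.5% of all 4921 regions. Its share of the total signal went the other way, at 0.00235% ± 0.000775 in WT and 0.00374% ± 0.000563 in Cgas_KO (SD, n = 3), a ratio of 1.59 with no overlap. By share, 3.62% of all 4921 regions were higher in every Cgas_KO library. The length called moved with the share, since peaks covered 5.64% to 27.4% of the scaffold in WT and 34.4% to 49.3% in Cgas_KO. How often length differed in this way among all regions was not computed. The region from 8321 to 17837 gave a log2 difference of -0.28 (SE 0.23), which did not pass (limma, Benjamini-Hochberg adjusted p = 0.401).

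The 6 scaffolds assigned to chromosome 1 held most of the scaffold peaks, 50 to 59 per list of 75 to 88 on all scaffolds. They were densely covered, by peaks a little taller than the list median. The median height was 1.21 to 1.38 times the list median, and 60.4% to 84% of these peaks exceeded it, against 41.8% to 49.6% of chromosome peaks. Peaks covered 44.7% to 60.7% of the length of these scaffolds, counted up to the furthest peak end in any list. The true lengths were not used here, so each such share is an upper limit. Densest was chr1_GL456239v1_random, covered at 88.9% to 98.4% of 40056 bp, followed by chr1_GL456212v1_random at 70.2% to 78.5% of 153600 bp. Peaks covered 41.9% to 59.9% of chr1_GL456221v1_random, 37.2% to 50.7% of chr1_GL456211v1_random and 21.0% to 52.0% of chr1_GL456210v1_random. Unlike the tall unplaced scaffolds, chr1_GL456212v1_random had its maximum anywhere from 68023 to 146370, depending on the library.

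Chromosomes were covered far less. Peaks covered 3.24% to 3.96% of chromosomes 1 to 19, X and Y, and of 13592 windows of 200 kb on them only 5 to 18 per list were covered at 50% or more. The scaffolds assigned to chromosome 5 and X looked like the chromosomes in this respect, with 1.11% to 3.50% and 0.641% to 3.63% covered. Their peaks were also low, since the median height was 0.615 to 0.769 times the list median on the chromosome 5 scaffolds and 0.786 to 1 times on chrX_GL456233v2_random. On the chromosome 5 scaffolds at most 1 peak per list exceeded the list median, and that 1 was on chr5_GL456354v1_random in Cgas_KO replicate 1, at 2 times.

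**Figure D3:**
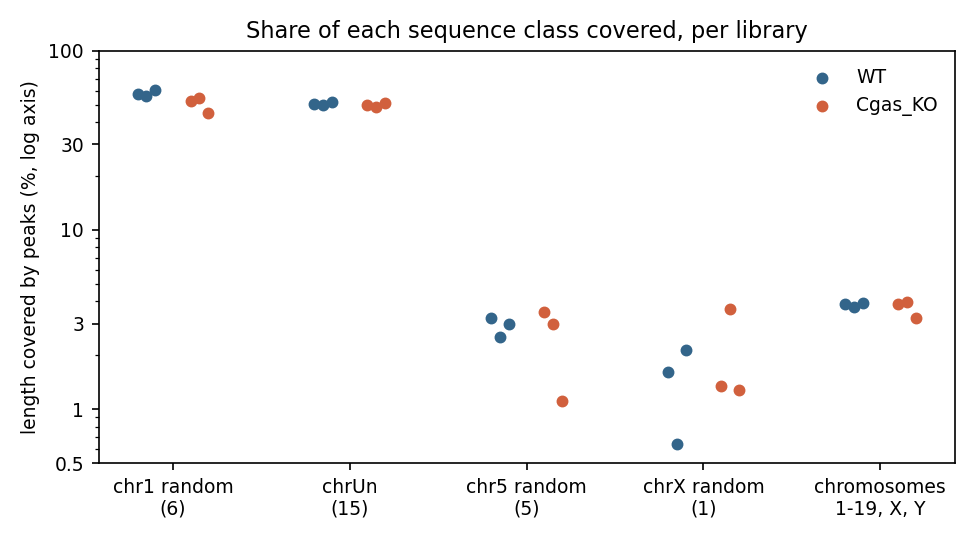
Share of sequence length covered by peaks (percent, log axis) for each class of sequence, with the number of scaffolds in brackets. Each point is 1 library, WT in blue and Cgas_KO in orange, and scaffold length is counted up to the furthest peak end in any list. Scaffolds assigned to chromosome 1 and unplaced scaffolds lie between 44.7% and 60.7%, while the other 3 classes lie at 3.96% or below. Of the 185324 to 197807 bp covered on unplaced scaffolds, chrUn_JH584304v1 held 114438 to 114451 bp and chrUn_MU069435v1 31129 bp.

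Over all scaffolds, peaks were taller and wider than on the chromosomes of the same list. The median height was 1.07 to 1.35 times that of chromosome peaks and the median width 1.24 to 1.54 times, higher in 6 of 6 libraries for both. As mean log2 ratios these were 0.31 ± 0.12 and 0.44 ± 0.11 (SD, n = 6 libraries), each with p = 0.0312 in a two-sided exact sign-flip permutation test, which is the smallest that 6 libraries allow, and 0.0312 after adjustment over the 2 contrasts. Without the scaffolds assigned to chromosome 1, an alternative chosen after the values were seen, the mean log2 ratio of height was 0.05 (exact sign-flip permutation p = 0.438, n = 6) and that of width 0.21 (exact sign-flip permutation p = 0.0312, n = 6). Without any 1 library no exact sign-flip test can go below p = 0.0625. Between the genotypes the relative heights overlapped, with WT at 1.28 ± 0.0662 and Cgas_KO at 1.22 ± 0.128 times the list median (SD, n = 3, p = 0.7 by exact permutation, adjusted 0.933). Relative widths were 1.36 ± 0.0322 and 1.36 ± 0.157 (SD, n = 3; exact permutation p = 1, adjusted 1).

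Peaks of the 6 lists were merged into regions where they overlapped by 1 bp. On scaffolds this gave 116 regions, of which 24 (20.7%, 95% exact binomial interval 13.7% to 29.2%, which treats regions as independent) were called in all 6 lists and 57 in 1 list only. On chromosomes 4896 of 94951 regions (5.16%) were in all 6 lists. These shares were not adjusted for the length covered. Peaks covered 44.7% to 60.7% of the chromosome 1 scaffolds and 3.24% to 3.96% of chromosomes, and merging joined a region of 130093 bp on chr1_GL456212v1_random. Under a stricter rule, with 50% of a region covered in every list, 9.48% of scaffold regions and 0.643% of chromosome regions were in all 6. The 24 recurrent regions lay on 14 scaffolds, 15 of them on the chromosome 1 scaffolds and 9 on unplaced ones. On chr5_JH584299v1_random and chrX_GL456233v2_random, which had peaks in all lists, no region recurred in all 6. The most widely shared regions there were called in 4 lists on the former, from 584337 to 593796 and from 610148 to 620601, and in 3 lists on the latter, from 549472 to 554890.

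**Figure D4:**
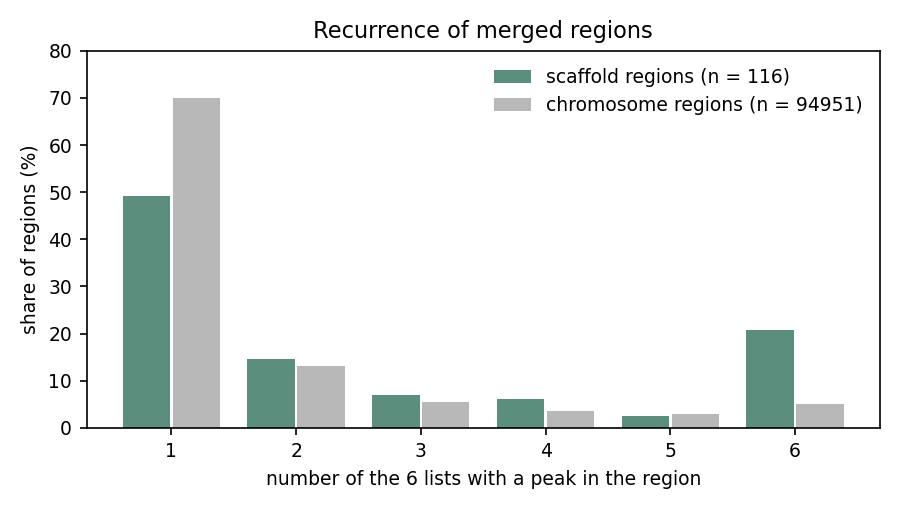
Share of merged regions (percent) by the number of lists with a peak in them, for 116 scaffold regions (green) and 94951 chromosome regions (grey). From 5 to 6 lists the scaffold bars rise from 2.59% to 20.7% and the chromosome bars from 2.97% to 5.16%.

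Few regions were called in every library of one genotype alone. On scaffolds 0 regions were called in all 3 WT lists and no Cgas_KO list, and 1 in all 3 Cgas_KO lists and no WT list. On chromosomes these were 0.377% and 0.330% of regions. The 1 scaffold region lay on chr5_GL456354v1_random from 171021 to 174879, at 2, 0.923 and 0.818 times the list median in Cgas_KO replicates 1 to 3. It was named after its values were seen and was not tested.

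The scaffold length called overlapped between the genotypes. Peaks covered 716, 684 and 746 kb in WT replicates 1 to 3 and 673, 692 and 581 kb in Cgas_KO replicates 1 to 3, of which Cgas_KO replicate 3 was the lowest. The means were 715 ± 31.0 kb and 649 ± 59.6 kb (SD, n = 3, p = 0.2 by exact permutation, adjusted 0.533), and without Cgas_KO replicate 3 the difference went from -66.7 to -32.7 kb. Across chromosomes Cgas_KO replicate 3 had the narrowest peaks too, with a median width of 2569 bp against 3219 to 3607 bp in the other lists.

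Scaffolds as a whole held 6.68%, 6.69% and 6.67% of the total signal in WT and 6.78%, 6.75% and 6.78% in Cgas_KO (exact permutation p = 0.1, adjusted 0.4, n = 3). The groups do not overlap on this base, and they differ by 0.0904 percentage points. Against chromosome signal without its tallest peak, the base also used for chrM, the groups overlap, with scaffold signal at 12.6%, 13.1% and 12.6% in WT and 13.0%, 13.3% and 13.0% in Cgas_KO (n = 3, p = 0.3 by exact permutation). The difference was also not shared by all scaffolds. Of the scaffold signal, chrUn_JH584304v1 alone held 88.3% to 89.0%, and with chrUn_MU069435v1 95.1% to 95.7%. Without these 2 scaffolds, chosen after the values were seen, the direction turned. The WT libraries held 0.319% ± 0.00768 on the other scaffolds, against 0.300% ± 0.00602 in Cgas_KO libraries (SD, n = 3, p = 0.1 by exact permutation).

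The scaffolds assigned to chromosome 1 made up most of this remainder and held a lower share of the signal in Cgas_KO, where less of their length was called. Together they held 0.224% ± 0.00649 of the signal in WT libraries and 0.202% ± 0.00458 in Cgas_KO libraries (SD, n = 3), with no overlap between the groups. Of all 4921 regions, 19.3% were lower in every Cgas_KO library. That rate is for single regions, and none was computed for sums over whole scaffolds. The length covered did not overlap either, at 466, 453 and 492 kb in WT and 423, 442 and 362 kb in Cgas_KO. No rate over all regions was computed for length. Per megabase covered, the share of the signal did overlap, at 0.484%, 0.480% and 0.468% in WT and 0.482%, 0.466% and 0.545% in Cgas_KO. By scaffold the shares did not overlap for chr1_GL456210v1_random (0.0286% ± 0.00240 and 0.0207% ± 0.00468), chr1_GL456211v1_random (0.0538% ± 0.00252 and 0.0476% ± 0.00194) and chr1_GL456221v1_random (0.0519% ± 0.00271 and 0.0460% ± 0.00448), each given as WT and Cgas_KO (SD, n = 3). Their tallest peaks overlapped between the genotypes. Of these 3, chr1_GL456221v1_random also had less length called in every Cgas_KO library. Shares on chr1_GL456212v1_random, chr1_GL456239v1_random and chr1_MU069434v1_random overlapped.

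**Figure D5:**
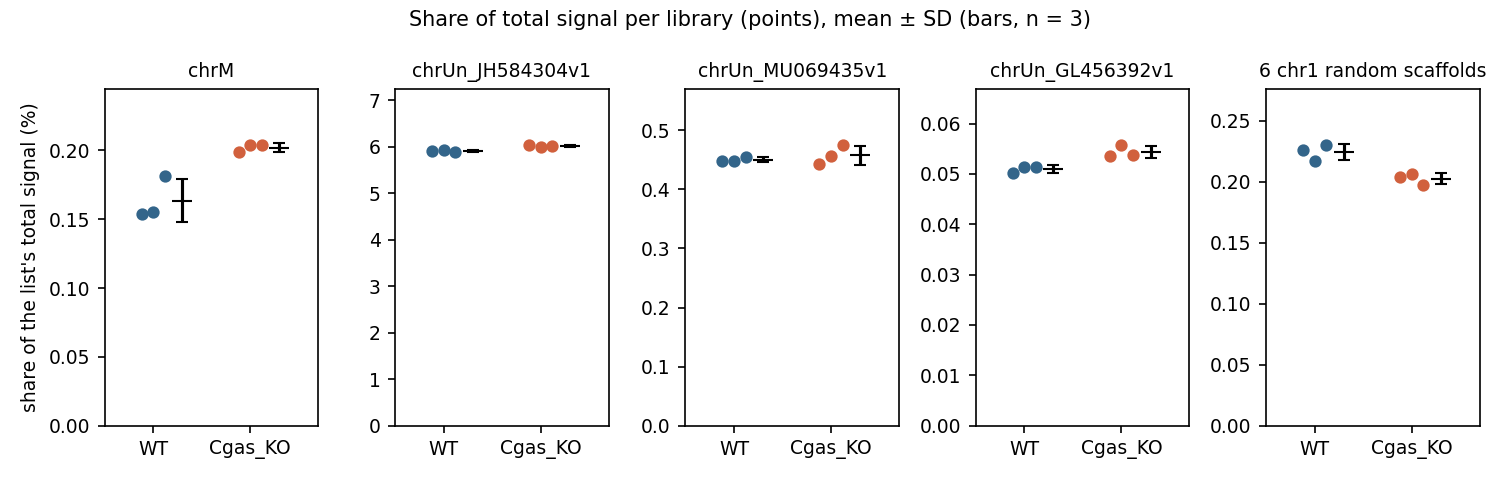
Share of each list's total signal (percent) held by chrM, 3 unplaced scaffolds and the sum of the 6 scaffolds assigned to chromosome 1. Points are libraries, bars the mean ± SD (n = 3), and each panel has its own axis from 0. Cgas_KO lies above WT on chrM (0.199% to 0.204% against 0.154% to 0.182%), above it by little on chrUn_JH584304v1 and chrUn_GL456392v1, and below it on the chromosome 1 scaffolds.

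By recurrent region, 4 of the 24 scaffold regions held a higher share of the total signal in every Cgas_KO than in every WT library and 3 a lower one. Over all 4921 regions 3.62% were higher and 19.3% lower by this rule. The 4 higher ones were on the unplaced chrUn_JH584304v1, chrUn_GL456392v1, chrUn_GL456389v1 and chrUn_GL456396v1, and the 3 lower ones on chromosome 1 scaffolds. The median log2 difference in share was -0.04 over the 24 scaffold regions and -0.18 over all 4921. Among chromosome regions of extreme height, over 20 times the list median on average, 6 of 16 were higher in Cgas_KO by the same rule and 5 lower, with a median log2 difference of 0.03. The difference between members and chromosome regions of like height was not tested.

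Relative height was tested with limma on log2 of height over the list median in all 4921 regions called in every list. In these shared regions height over the list median was mostly lower in Cgas_KO, with a median log2 difference of -0.36. At an adjusted p of 0.05, 16.7% of regions were called, 813 lower and 11 higher, out of 33.6% at an unadjusted p under 0.05. Of the 25 member regions, chrM included, 0 were called and 0 reached an unadjusted p under 0.05. The median difference over the 24 scaffold regions was -0.06, and 4 of them were lower in every Cgas_KO library and 0 higher, where 33.5% and 1.91% of all regions were. On normal scores of ranks, which take out a shift common to the list, limma called 0 regions, and 1 of 25 members had an unadjusted p under 0.05, as did 9.43% of all regions. That member was chr1_GL456221v1_random from 33737 to 48842, higher by 0.64 normal scores (limma, Benjamini-Hochberg adjusted p = 0.439). It was lower in Cgas_KO on share of total signal, with a log2 difference of -0.70. The count of 824 called regions became 279, 433 and 1 without WT replicates 1, 2 and 3, and 460 and 191 without Cgas_KO replicates 1 and 3.

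The members with the smallest p in each direction on this scale did not pass the test. Higher in Cgas_KO were chr1_GL456221v1_random from 33737 to 48842, with a log2 difference of 0.17 (SE 0.23), chrM with 0.16 (SE 0.25) and chrUn_GL456389v1 from 9643 to 11309 with 0.09 (SE 0.23), with limma adjusted p-values of 0.637, 0.686 and 0.803. Lower were chrUn_MU069435v1, given above, chrUn_GL456378v1 from 2699 to 11598 with -0.39 (SE 0.23) and chrUn_GL456387v1 from 14443 to 24600 with -0.38 (SE 0.24), with limma adjusted p-values of 0.242 and 0.285 for the last 2. On chrUn_GL456378v1 the heights were 2.29, 2.15 and 2.08 times the list median in WT and 1.5, 1.77 and 1.73 times in Cgas_KO. Every Cgas_KO library was lower there, as in 33.5% of all 4921 regions. On chrUn_GL456387v1 they were 1.71, 1.62 and 2.46 times in WT and 1.64, 1.38 and 1.36 times in Cgas_KO, and the groups overlap. The differences on the last 2 scaffolds are close to the median difference of -0.36 over all 4921 regions called in every list. Those of chrM, chrUn_GL456389v1, chrUn_GL456392v1 (0.07, SE 0.23) and chrUn_JH584304v1 (0.00, SE 0.23) are above that median. Of chromosome regions, the 398 regions over 5 times the list median on average had a median log2 difference of -0.74, and the 16 over 20 times had -0.01.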

How the data were processed

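CUT&RUN libraries of CTCF were grouped by genotype, 3 WT and 3 Cgas_KO. The submitters' processing notes name Bowtie2, SEACR 1.3 and the builds mm10 and mm39. The sequence names belong to mm39. Each deposited peak carries 2 signal values made by the authors, its sum and its maximum. Threshold, scaling and any control: not given in the sources used here. Peaks were called per library.

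Members were chosen by sequence name. Heights were divided by the median of chromosome peaks, signal by the list's total. Values per library were compared with two-sided exact permutation tests (20 assignments) and Benjamini-Hochberg adjustment over 8 measures, scaffolds against chromosomes with exact sign-flip tests, and regions with limma 3.58.1 (R 4.3.3), tested on simulated data. Other tools were scipy 1.17.1, pandas 2.3.3, matplotlib 3.10.9 and numpy 2.4.6, under Python 3.11.15.

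Named with values were chrM, the 8 tallest scaffolds in all lists, scaffolds in 1 genotype only and the 3 member regions of smallest limma p in each direction. Others named were picked from the values. Members, lists and tests were chosen with earlier results of these data known. Alternatives were other denominators, list cuts, merging rules, ranks, share of total signal, each library left out in turn and a replicate block.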

Additional observations from a re-analysis of the deposited data

How the results depend on the processing

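Depth is unknown, and 3 libraries a group limit the precision. The mitochondrial share was higher in Cgas_KO in all 11 alternatives run (0.0337 to 0.0792 percentage points), and the scaffold length covered was lower in all 10. As the mitochondrial shares of the groups do not overlap, leaving out a library could not turn their sign, nor could the replicate block. Same-numbered libraries did not deviate together (r = -0.0167, -0.0193 and -0.0151), so the numbers are not taken as pairs. With the replicate block the mitochondrial difference was 0.0386 (exact sign-flip p = 0.25, the smallest possible), and limma called 740 regions, 0 of them members.

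Leaving out 1 library at a time, differences ranged from -0.167 to 6.33 for scaffold peaks (negative without Cgas_KO replicate 3), from -0.127 to 0.0165 for log2 relative height (positive without Cgas_KO replicate 1) and from -0.0956 to 0.0590 for log2 relative width (positive without WT replicate 3, Cgas_KO replicate 1 or Cgas_KO replicate 3). Scaffold against chromosome log2 ratios were 0.292 to 0.358 for height and 0.400 to 0.462 for width, with p = 0.0625 by exact sign-flip permutation, the smallest 5 libraries allow. Limma calls ranged from 1 (without WT replicate 3) to 867 (without Cgas_KO replicate 2).

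Log2 relative height turned to 0.142 in the top 50% of each list (exact permutation p = 0.1) and to 0.0111 with the highest peak of each scaffold. The scaffold share turned to -0.0196 without the 2 tallest scaffolds, and scaffold against chromosome height fell to 0.0504 without the chromosome 1 scaffolds, both chosen after the data were seen. With 50% cover, recurrence was 9.48% and limma called 153 of 620 regions. It called 2 on share of total signal and 0 on ranks, and no member in any setting.

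Single regions also turned. On share of total signal chr1_GL456221v1_random (33737 to 48842) was at -0.701, chrUn_GL456367v1 at 0.0645, chrUn_GL456387v1 at 0.197, chrUn_GL456396v1 at 0.605 and chrUn_MU069435v1 at 0.0231. On ranks chr1_MU069434v1_random was at 0.167, chrUn_GL456367v1 at 0.432 and chrUn_GL456396v1 at 0.236. Without 1 library chr1_GL456239v1_random ranged from -0.118 to 0.139 and chrUn_JH584304v1 from -0.0609 to 0.0857. The cause was not tested.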
